A study of Homo sapiens with 12 samples.

Results

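The genes described here are 10 that mark arteries or veins: EFNB2, EPHB4, HEY2, NR2F1, NR2F2, GJA4, GJA5, CXCR4, CXCL12 and UNC5B. They were taken by symbol from a table of 56593 gene symbols, and each of the 10 stood on 1 line of it. RNA sequencing was done on 4 populations on the way from H1, an established human embryonic stem cell line, to blood, with 3 libraries for each population. The populations were undifferentiated H1 cells, APLNR+ mesoderm cells of day 2, CD31+CD34+ endothelial and blood-forming progenitors (HEPs) of day 5, and CD43+ hematopoietic progenitor cells (HPCs) of day 8. The APLNR+ cells were taken after 2 days with activin A and BMP4, the CD31+CD34+ and CD43+ cells had VEGF and bFGF after those 2 days, and the labels name no genetic change in any population. The populations differ in day, in culture conditions and in the surface proteins used to sort them, and these cannot be told apart. All 12 libraries came from 1 cell line, and the labels do not say that the 3 libraries of a population were separate cultures, so p-values measure the spread between libraries, which may be technical.

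Arteries and veins are told apart by their genes before they are told apart by blood flow. Arterial endothelial cells carry the membrane ligand ephrin-B2 (EFNB2), venous cells carry its receptor EphB4 (EPHB4), and signals between the pair keep the vessel types separate. VEGF and Notch signals favour the arterial program, with HEY2 as a Notch target, whereas the nuclear receptor COUP-TFII (NR2F2) represses Notch signals in veins. Part of the blood-forming endothelium of the embryo lies in the wall of large arteries, so arterial genes are often read alongside hemogenic ones.

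The promoters of the ephrin pair, of HEY2 and of GJA5 are shown so that the regulatory sequence of the ligand, the receptor, the Notch target and a connexin can be read beside their levels. Each window runs from 250 bases before to 50 bases after an annotated start and was taken from RefSeq on GRCh38.p14. The windows lie at chr13:106535613-106535912 on the minus strand for EFNB2, chr7:100827474-100827773 on the minus strand for EPHB4, chr6:125749382-125749681 on the plus strand for HEY2 and chr1:147773302-147773601 on the minus strand for the first start of GJA5. Capitals mark every match, on either strand, to 1 of 6 motifs searched. The first was GTGGGAA, the core bound by RBPJ, which is the DNA-binding partner of Notch. The HEY and HES repressors were represented by CACGCG, and the related E-box of basic helix-loop-helix factors by its palindrome CACGTG. The endothelial ETS factors were represented by CCGGAA, the blood and endothelial GATA factors by AGATAA, and the widely present SP factors by GGGCGG.
EFNB2: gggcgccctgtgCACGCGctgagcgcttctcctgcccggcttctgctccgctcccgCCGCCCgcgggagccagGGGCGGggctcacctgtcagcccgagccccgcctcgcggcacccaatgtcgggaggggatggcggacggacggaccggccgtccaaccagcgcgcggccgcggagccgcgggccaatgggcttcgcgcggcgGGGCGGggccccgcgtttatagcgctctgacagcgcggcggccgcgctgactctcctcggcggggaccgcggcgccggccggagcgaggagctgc
EPHB4: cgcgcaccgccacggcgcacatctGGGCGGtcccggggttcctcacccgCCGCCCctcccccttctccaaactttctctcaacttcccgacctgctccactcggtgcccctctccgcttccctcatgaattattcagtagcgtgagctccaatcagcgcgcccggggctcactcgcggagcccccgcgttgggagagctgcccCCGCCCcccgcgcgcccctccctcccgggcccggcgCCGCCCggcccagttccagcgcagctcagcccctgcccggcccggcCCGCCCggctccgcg
HEY2: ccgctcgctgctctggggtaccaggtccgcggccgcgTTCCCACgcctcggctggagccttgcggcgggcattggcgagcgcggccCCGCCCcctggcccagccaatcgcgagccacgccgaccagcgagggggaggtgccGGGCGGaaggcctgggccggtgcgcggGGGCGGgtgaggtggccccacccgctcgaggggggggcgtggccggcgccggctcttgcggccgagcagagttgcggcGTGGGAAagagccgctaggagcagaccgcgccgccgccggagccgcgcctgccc
GJA5: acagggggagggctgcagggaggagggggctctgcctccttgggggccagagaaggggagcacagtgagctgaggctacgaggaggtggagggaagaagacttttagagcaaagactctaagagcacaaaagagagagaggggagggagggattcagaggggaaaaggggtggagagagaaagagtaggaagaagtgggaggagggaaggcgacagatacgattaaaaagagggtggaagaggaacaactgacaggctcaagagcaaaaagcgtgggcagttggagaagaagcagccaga

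The HEY2 window held GTGGGAA at 213 and at 4 bases before the start, a motif present in 6.25% of 35116 such windows. The EFNB2 window held CACGCG at 238 bases before the start, found in 11.4% of windows, and 3 matches to GGGCGG, found in 45.0%. The EPHB4 window held 5 matches to GGGCGG and none to the other motifs, and the GJA5 window held none of the 6. Over all windows CCGGAA was in 17.2%, while the GATA motif was in 10.3% and the E-box in 7.26%. G and C made up 79.0% of the HEY2 window, 78.7% of the EFNB2 window, 74.3% of the EPHB4 window and 55.3% of the GJA5 window, against a median of 58.7% over all windows. No 2 marked matches overlap, and they describe letters, not binding. Of the 10 genes, 8 had a promoter entry, with 13 windows in all, and the only other window with GTGGGAA was 1 of the 3 starts of CXCR4, at 222 bases before it.

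Levels are given in FPKM, fragment counts scaled for transcript length and library size, so that genes can be set side by side within a library. Summed over all gene lines, FPKM ranged from 568036 to 1576040 between libraries. The upper quartile of the tested genes ranged from 15.1 to 17.9 FPKM. The number of reads behind each value is unknown. Relative depth was estimated from the most common ratio of very low values between the third CD43+ library and each other library. It ranged from 0.554 to 1.27 times that of the third CD43+ library. Replicate 1 was the shallowest in each population and the first CD31+CD34+ library the shallowest of all. The sums of the endothelial and blood marker lists were highest in the populations sorted for such cells, but not every marker was. PECAM1, which is CD31, averaged 55.2 FPKM in CD31+CD34+ and 95.9 in CD43+ cells, and CLDN5 1.64 and 5.53. PTPRC stayed under 1 FPKM throughout. The largest members were EGFL7, at 865 FPKM in CD31+CD34+ cells, and HBG2, at 1324 FPKM in CD43+ cells. The summed level of 10 endothelial markers was 54.0 to 58.8 FPKM in H1, 69.3 to 83.3 in APLNR+, 1477 to 1645 in CD31+CD34+ and 562 to 684 in CD43+ libraries. The sum of 10 blood markers was 47.4 to 60.4 FPKM in CD31+CD34+ and 1941 to 2401 in CD43+ libraries. The sum of 6 mesoderm markers was 0.884 to 0.992 FPKM in H1, 561 to 620 in APLNR+ and 407 to 461 in CD31+CD34+ libraries, and APLNR itself averaged 383 and 403 FPKM in the latter 2 populations. In APLNR+ libraries the endoderm list summed to 2194 to 2327 FPKM, above the mesoderm sum, but CER1 alone averaged 2238 FPKM there. Of the rest, SOX17 averaged 17.5, CXCR4 6.06 and APOA1 1.40 FPKM, and FOXA1, FOXA2, TTR and AFP averaged under 1 FPKM. In bulk samples, fewer cells of a type and less RNA per cell cannot be told apart.

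Of the 10 genes, 8 reached at least 1 FPKM in 3 or more libraries and were tested with limma on log2(FPKM + 1), beside 14840 genes in all. A gene is called raised or lowered when its Benjamini-Hochberg adjusted p was under 0.05 and its change was at least 2-fold on that scale, which understates the change of low genes. NR2F1 and NR2F2 did not reach 1 FPKM in any library. The venous regulators were thus near 0 throughout, whereas the venous receptor EPHB4 had the highest level of the 10 genes in each of the 12 libraries.

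**Figure D1:**
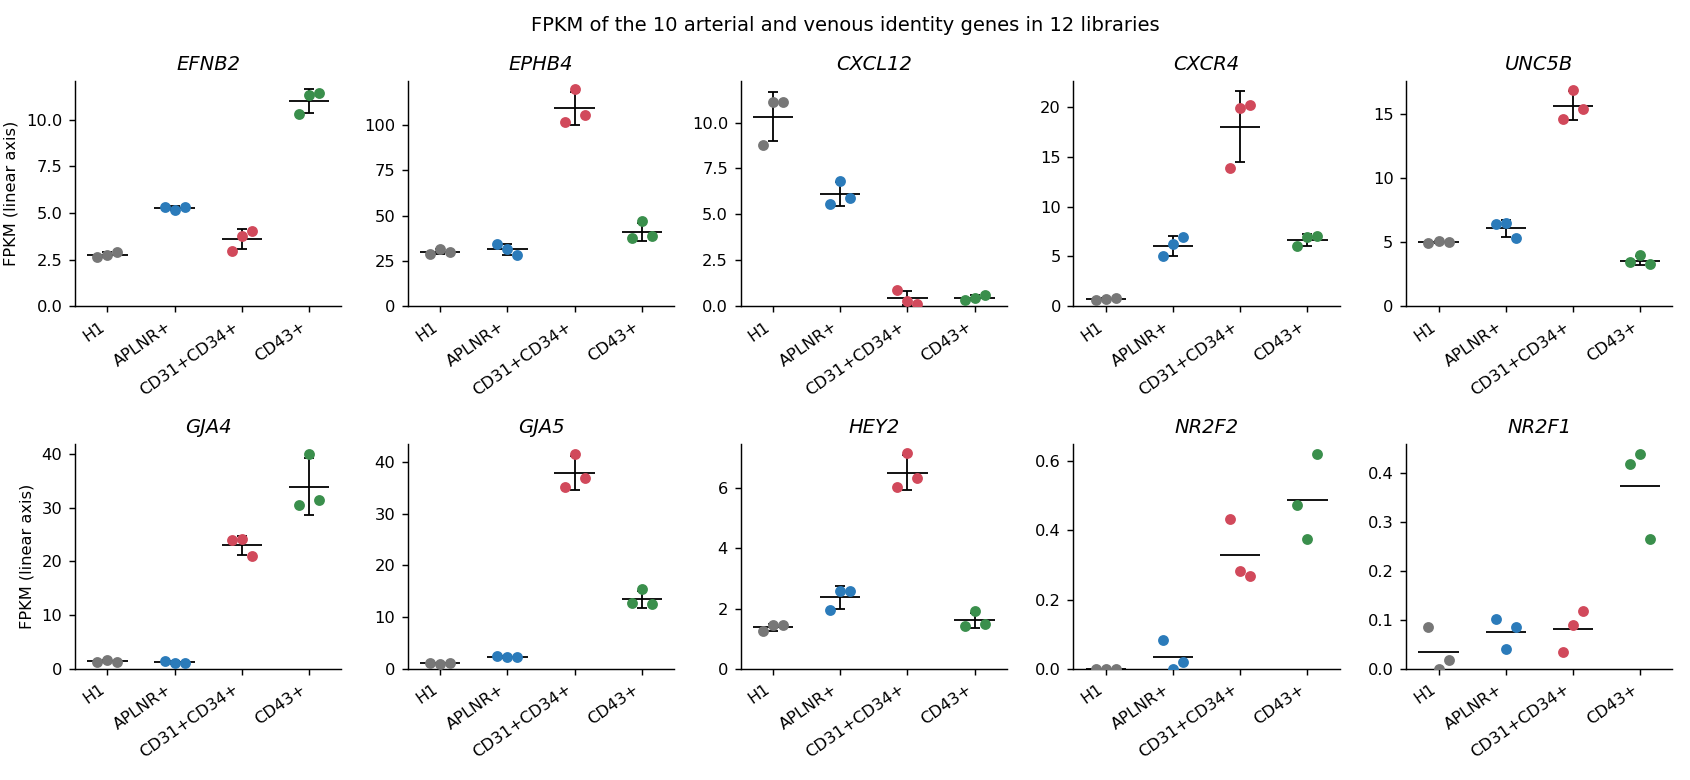
FPKM (linear axes from 0) of the 10 genes in each of the 12 libraries, by population; points are libraries, the black line is the mean of 3 and the bars are the SD, which is left out for NR2F1 and NR2F2. EPHB4, HEY2, GJA5, CXCR4 and UNC5B peak in CD31+CD34+ cells, GJA4 and EFNB2 are highest in CD43+ cells, and CXCL12 is highest in H1 cells.

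EPHB4 was highest in HEPs and EFNB2 in HPCs. EPHB4, the receptor, stood at 29.1, 31.3 and 30.0 FPKM in H1, at 34.3, 31.7 and 28.2 in APLNR+, at 102, 119.7 and 106 in CD31+CD34+ and at 37.8, 46.8 and 38.5 in CD43+ libraries. Its H1 and APLNR+ libraries overlapped, all 3 CD31+CD34+ libraries lay far above the rest, and the CD43+ libraries lay between. On the log2 scale EPHB4 rose by 1.77 ± 0.11 (SE) from APLNR+ to CD31+CD34+ cells, a ratio of means of 3.47 (limma adjusted p = 3.11e-08), and fell by 1.39 ± 0.11 from there to CD43+ cells (adjusted p = 4.36e-07 by limma). From H1 to APLNR+ cells its log2 difference was 0.05, with a 95% interval from -0.18 to 0.29.

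EFNB2, the ligand, was far lower than its receptor. It measured 2.62, 2.74 and 2.88 FPKM in H1, 5.30, 5.13 and 5.32 in APLNR+, 2.97, 3.78 and 4.01 in CD31+CD34+ and 10.3, 11.3 and 11.4 in CD43+ libraries. No 2 populations overlapped, and the HEP libraries lay below the mesoderm libraries, the step at which 6 of the other 7 tested genes rose. EFNB2 rose by 1.39 ± 0.10 on the log2 scale from CD31+CD34+ to CD43+ cells, 3.06-fold on the means (limma adjusted p = 2.52e-07). The differences at the earlier steps, 0.74 ± 0.10 (adjusted p = 5.56e-05, limma) and -0.45 ± 0.10 (adjusted p = 0.00142, limma), were past the p threshold but under 2-fold.

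The ratio of EFNB2 to EPHB4 within a library set their levels side by side. It was 0.0903, 0.0876 and 0.0959 in H1, 0.154, 0.162 and 0.189 in APLNR+, 0.0292, 0.0316 and 0.0379 in CD31+CD34+ and 0.271, 0.241 and 0.296 in CD43+ libraries. The populations did not overlap, and the order from low to high was CD31+CD34+, H1, APLNR+ and CD43+. EPHB4 exceeded EFNB2 in all 12 libraries. These ratios are a description, with no test.

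**Figure D2:**
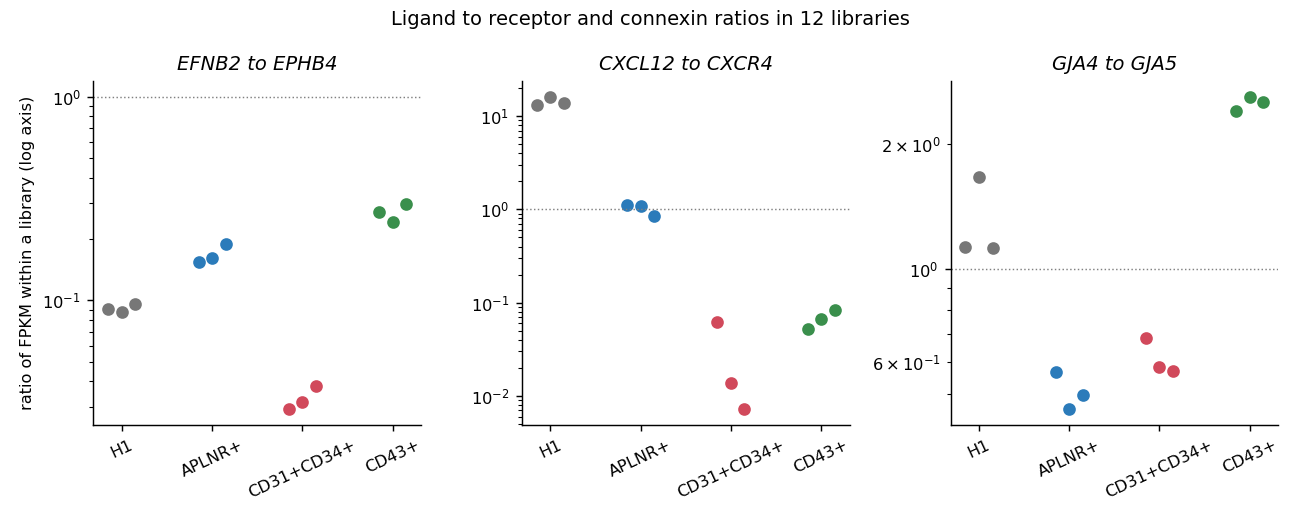
Ratio of FPKM values of 2 genes within each library, on a log axis with a line at 1, by population; points are libraries. The EFNB2 to EPHB4 ratio is lowest in CD31+CD34+ libraries (0.0292 to 0.0379) and highest in CD43+ libraries (0.241 to 0.296), and the CXCL12 to CXCR4 ratio is above 13 in H1 libraries and below 0.1 in CD31+CD34+ and CD43+ libraries.

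HEY2, a transcriptional repressor downstream of Notch, was a HEP gene in these libraries. It stood at 1.25, 1.46 and 1.45 FPKM in H1, 1.94, 2.58 and 2.60 in APLNR+, 6.06, 7.18 and 6.32 in CD31+CD34+ and 1.44, 1.91 and 1.49 in CD43+ libraries. All 3 CD31+CD34+ libraries were above the other 9, and the CD43+ and H1 libraries overlapped. HEY2 rose by 1.16 ± 0.11 on the log2 scale from APLNR+ to CD31+CD34+ cells (2.75-fold on the means, limma adjusted p = 1.8e-06) and fell by 1.53 ± 0.11 to CD43+ cells (limma adjusted p = 3.19e-07). Between CD43+ and H1 cells the log2 difference was 0.13, with a 95% interval from -0.12 to 0.37.

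NR2F2 and its close relative NR2F1, both nuclear receptors, were at or near the floor of the table. NR2F2 was listed at 0 in all 3 H1 libraries, at 0.0839, 0 and 0.0185 FPKM in APLNR+, at 0.432, 0.282 and 0.269 in CD31+CD34+ and at 0.473, 0.375 and 0.619 in CD43+ libraries. Its libraries did not overlap between APLNR+ and CD31+CD34+ cells (exact two-sided permutation p = 0.1, the smallest that 3 against 3 can give) and overlapped between CD31+CD34+ and CD43+ cells (exact permutation p = 0.2). NR2F1 measured 0.0861, 0 and 0.0175 FPKM in H1, 0.103, 0.0412 and 0.0849 in APLNR+, 0.0341, 0.0896 and 0.119 in CD31+CD34+ and 0.419, 0.439 and 0.265 in CD43+ libraries. It lay higher in every CD43+ library than in any CD31+CD34+ library (exact permutation p = 0.1). A listed 0 may be a failed estimate, since EEF1A1, a gene used by every cell, was listed at 0 in 6 of the libraries, so no fold is given against it. Those 6 libraries were replicates 2 and 3 of H1, APLNR+ and CD43+ cells.

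Without a filter on low values, limma over 34116 genes gave NR2F2 a log2 difference of 0.36 from APLNR+ to CD31+CD34+ cells (adjusted p = 0.00126) and NR2F1 one of 0.35 from CD31+CD34+ to CD43+ cells (adjusted p = 0.000952), both under 2-fold. HEY2 exceeded NR2F2 by 14.0, 25.4 and 23.5 times in the CD31+CD34+ libraries and by 3.04, 5.10 and 2.40 times in the CD43+ libraries. These ratios divide by values under 1 FPKM and are unstable. In the APLNR+ libraries where NR2F2 was above 0 they were 23.2 and 140. NR2F6, the remaining COUP-TF relative, was in contrast abundant, and was looked up after the levels of NR2F1 and NR2F2 were seen. Its means were 28.1, 25.2, 57.3 and 32.5 FPKM in H1, APLNR+, CD31+CD34+ and CD43+ cells. NR2F6 was called raised from APLNR+ to CD31+CD34+ cells, by 1.15 ± 0.12 on the log2 scale (limma adjusted p = 2.81e-06).

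The arterial connexins both rose at the HEP step and differed at the steps before and after it. GJA4 (connexin 37) and GJA5 (connexin 40) form the gap junction channels that couple arterial endothelial cells. GJA5 stood at 1.10, 0.988 and 1.17 FPKM in H1, 2.50, 2.30 and 2.21 in APLNR+, 35.1, 41.5 and 36.8 in CD31+CD34+ and 12.6, 15.4 and 12.5 in CD43+ libraries. GJA4 stood at 1.25, 1.64 and 1.31 FPKM in H1, 1.41, 1.06 and 1.10 in APLNR+, 23.9, 24.1 and 21.0 in CD31+CD34+ and 30.4, 39.9 and 31.4 in CD43+ libraries. For GJA5 no populations overlapped and HEPs were highest, whereas the GJA4 libraries of H1 and APLNR+ overlapped and the CD43+ libraries were highest.

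At the HEP step GJA5 rose by 3.54 ± 0.10 (16.2-fold on the means, limma adjusted p = 7.43e-11) and GJA4 by 3.46 ± 0.12 on the log2 scale (19.4-fold, adjusted p = 3.48e-10), the largest changes of the 8 tested genes between successive populations on this scale, which understates the fall of a low gene such as CXCL12. From CD31+CD34+ to CD43+ cells GJA5 fell by 1.42 ± 0.10 (limma adjusted p = 2.63e-07), while the log2 difference of GJA4 was 0.53 ± 0.12 in the other direction (limma adjusted p = 0.00301, under 2-fold). The GJA4 to GJA5 ratio was 0.682, 0.582 and 0.570 in CD31+CD34+ libraries and 2.41, 2.60 and 2.52 in CD43+ libraries, so GJA5 was the more abundant in every HEP library and GJA4 in every HPC library. In H1 libraries, where both genes were low, the ratio was 1.13, 1.66 and 1.13, and in APLNR+ libraries 0.565, 0.460 and 0.498. From H1 to APLNR+ cells GJA5 differed by 0.68 ± 0.10 on the log2 scale (limma adjusted p = 0.00014, under 2-fold on this scale). For GJA4 the log2 difference was -0.13 (limma adjusted p = 0.377).

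The chemokine CXCL12 and its receptor CXCR4, which guide endothelial and blood progenitor cells, had opposite courses up to the HEP stage. CXCR4 measured 0.667, 0.687 and 0.803 FPKM in H1, 5.00, 6.25 and 6.93 in APLNR+, 13.9, 19.9 and 20.2 in CD31+CD34+ and 6.00, 7.0 and 7.01 in CD43+ libraries. CXCL12 measured 8.76, 11.1 and 11.1 FPKM in H1, 5.56, 6.84 and 5.90 in APLNR+, 0.854, 0.275 and 0.145 in CD31+CD34+ and 0.313, 0.468 and 0.586 in CD43+ libraries. For the receptor the APLNR+ and CD43+ libraries overlapped and the HEP libraries were highest, and for the ligand the HEP and HPC libraries overlapped and the H1 libraries were highest.

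CXCR4 rose at both of the first steps, by 2.03 ± 0.15 (8.43-fold on the means, limma adjusted p = 2.08e-07) and by 1.42 ± 0.15 on the log2 scale (2.98-fold, adjusted p = 2.89e-06), and fell by 1.30 ± 0.15 after the HEP stage (limma adjusted p = 1.32e-05). CXCL12 fell by 2.35 ± 0.17 on the log2 scale from APLNR+ to CD31+CD34+ cells (limma adjusted p = 1.3e-07). On the means this was 14.4-fold, and 29.1-fold without the first CD31+CD34+ library, the shallowest, which was also the highest of the 3. From CD31+CD34+ to CD43+ cells the CXCL12 difference was 0.06, with a 95% interval from -0.31 to 0.43, and its sign depended on which library was included. The ratio of CXCL12 to CXCR4 was 13.1, 16.2 and 13.8 in H1, 1.11, 1.09 and 0.852 in APLNR+, 0.0613, 0.0138 and 0.00716 in CD31+CD34+ and 0.0522, 0.0668 and 0.0836 in CD43+ libraries. CXCR4 also marks endoderm, and the summed level of an endoderm list that holds it was 2194 to 2327 FPKM in APLNR+ libraries against 10.5 to 12.3 in H1, with CER1 the main contributor. Its part in the CXCR4 level was not tested.

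UNC5B, a netrin receptor of arterial and sprouting endothelial cells, was also highest in HEPs. It measured 4.96, 5.12 and 5.01 FPKM in H1, 6.42, 6.48 and 5.30 in APLNR+, 14.6, 16.9 and 15.4 in CD31+CD34+ and 3.41, 3.98 and 3.28 in CD43+ libraries. The HEP libraries were above and the HPC libraries below all others. UNC5B rose by 1.24 ± 0.10 on the log2 scale to CD31+CD34+ cells (2.58-fold on the means, limma adjusted p = 3.78e-07) and fell by 1.87 ± 0.10 to CD43+ cells (4.40-fold, limma adjusted p = 2.07e-08). Its difference between H1 and APLNR+ cells was 0.22 (limma adjusted p = 0.0751).

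**Figure D3:**
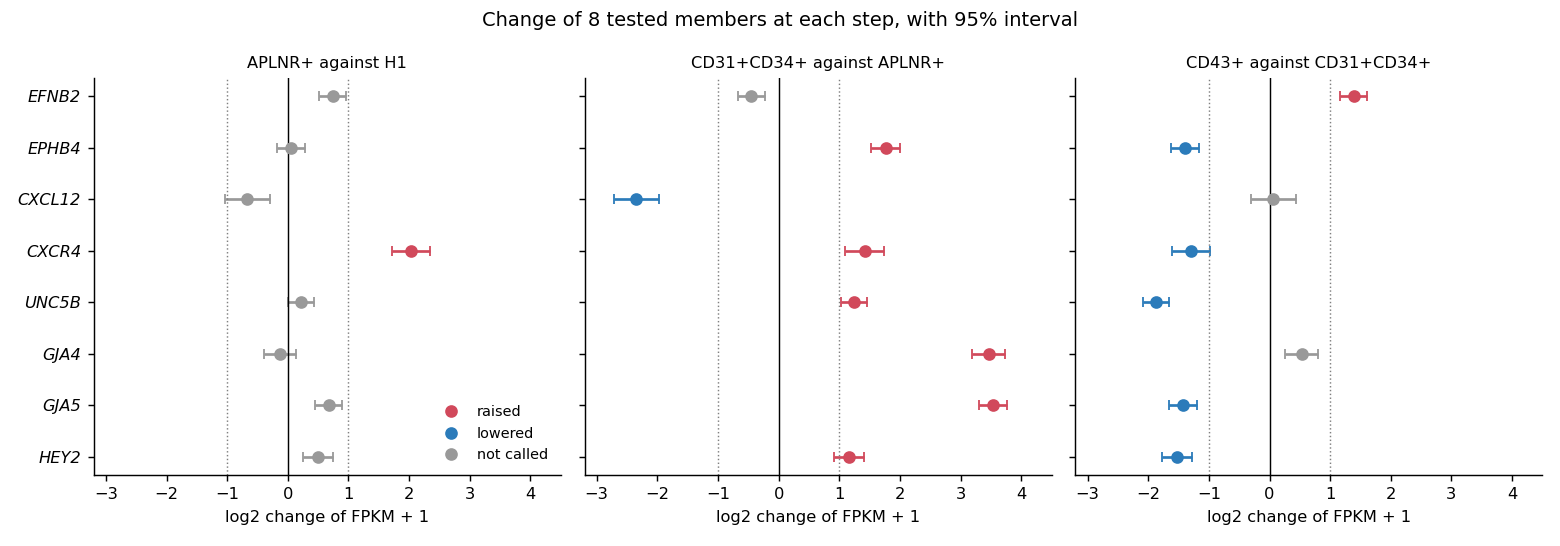
log2 change of FPKM + 1 for the 8 tested genes at the 3 steps between successive populations; points are limma estimates, bars are 95% intervals and dotted lines mark a 2-fold change. At the step to CD31+CD34+ cells 6 genes lie above the upper line and CXCL12 below the lower, and at the step to CD43+ cells 5 genes lie below the lower line and EFNB2 above the upper.

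Read by step, the move from H1 to APLNR+ cells raised 1 of the 8 tested genes, CXCR4, and lowered none, where 8.3% of all genes tested were raised and 7.62% lowered. The median log2 change of the 8 was 0.36 and that of all genes -0.12. The move to CD31+CD34+ cells raised 6 (EPHB4, HEY2, GJA4, GJA5, CXCR4 and UNC5B) and lowered 1 (CXCL12), where 12.5% of all genes were raised and 17.1% lowered. The median of the 8 was 1.33 and that of all genes -0.01. At this step all 10 endothelial markers were raised as well, among them PECAM1, the CD31 used in the sort. Of 9 tested blood markers 7 were raised, and of 11 tested mural and mesenchymal markers 6 were raised and 2 lowered. The sum of all 12 mural and mesenchymal markers was 605 to 748 FPKM in APLNR+ and 918 to 961 in CD31+CD34+ libraries. The part of these cell types in the changes was not tested.

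The move to CD43+ cells lowered 5 (EPHB4, HEY2, GJA5, CXCR4 and UNC5B) and raised 1 (EFNB2), where 8.79% of all genes were lowered and 5.58% raised. The median of the 8 was -1.34 against 0.00 for all genes. At this step 5 of 10 endothelial markers were lowered and 1 was raised. All 9 tested blood markers were raised, among them SPN, the CD43 used in the sort. Of 11 tested mural and mesenchymal markers 6 were lowered and 1 raised, and the list summed to 205 to 248 FPKM in CD43+ libraries. Of 6 tested endoderm markers, which include CXCR4, 5 were lowered and 1 raised. The part of these cell types was not tested. The 2 steps share the CD31+CD34+ libraries, so they are not independent of each other.

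Across the whole course, CD43+ cells differed from H1 cells in 5 of the 8 genes. EFNB2, CXCR4, GJA4 and GJA5 were raised, where 14.6% of all genes were, and CXCL12 was lowered, where 22.5% were. GJA4 was 24.2-fold and GJA5 12.4-fold higher on the means, EFNB2 4.0-fold higher and CXCL12 22.7-fold lower. For EPHB4 the log2 difference was 0.43 (limma adjusted p = 0.00306) and for UNC5B -0.41 (limma adjusted p = 0.00281), both under 2-fold. Between H1 and CD31+CD34+ cells the same 6 genes as at the HEP step were raised (16.9% of all genes) and CXCL12 was lowered (23.2% of all genes). Between APLNR+ and CD43+ cells GJA4 and GJA5 were raised (14.1% of all genes) and CXCL12 was lowered (19.4% of all genes), and CXCR4 differed by 0.13 on the log2 scale, with a 95% interval from -0.19 to 0.45.

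Lists of related genes are read against the same shares of all genes tested: 8.3% raised and 7.62% lowered from H1 to APLNR+ cells, 12.5% and 17.1% at the HEP step, and 5.58% and 8.79% at the HPC step. Of 18 other arterial genes 15 were tested, and 9 were raised, 1 was lowered and 5 were not called at the HEP step, with a median of 1.45. ACVRL1, a BMP-family receptor of endothelium, rose from 2.64 ± 0.835 to 87.9 ± 6.08 FPKM (SD, n = 3, limma adjusted p = 3.06e-10), and the Notch ligand JAG2 from 1.26 ± 0.280 to 28.8 ± 2.16 FPKM (adjusted p = 2.3e-10, limma). GJA1 (connexin 43), which many cell types use, fell from 246 ± 33.8 to 46.2 ± 6.82 FPKM (adjusted p = 8.79e-09, limma), while GJA4 and GJA5 rose.

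At the step to CD43+ cells 4 of these 15 were raised and 5 lowered, with a median of -0.13. The Notch ligand DLL4 rose from 9.36 ± 0.704 to 26.3 ± 1.84 FPKM (limma adjusted p = 3.95e-07) and MECOM, a transcription factor of blood stem cells and endothelium, from 0.822 ± 0.258 to 4.29 ± 0.710 FPKM (adjusted p = 6.75e-07 by limma). JAG2 fell to 3.65 ± 0.677 FPKM (limma adjusted p = 6.4e-09). SOX17, a factor of arterial endothelium and endoderm, fell from 24.2 ± 4.07 to 1.40 ± 0.239 FPKM (adjusted p = 1.53e-09, limma). At the first step it had gone up from 0.0624 FPKM to 17.5 ± 1.87 in mesoderm, where NRP1, a VEGF co-receptor, rose from 0.534 ± 0.119 to 18.6 ± 1.26. In all, 4 of the 15 were raised and none lowered at that first step, with a median of 0.44.

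Of 12 other venous and lymphatic genes 7 were tested, and 4 were raised and none lowered at the step to CD31+CD34+ cells, with a median of 1.5. STAB1, a scavenger receptor of sinusoidal endothelium and macrophages, rose from 0.168 ± 0.0711 to 45.9 ± 2.74 FPKM (limma adjusted p = 3.31e-12) and FLT4, the receptor of VEGF-C, from 0.820 ± 0.117 to 22.4 ± 0.899 FPKM (adjusted p = 2.2e-11, limma). At the step to CD43+ cells 2 were raised and 4 lowered, with a median of -1.34. SELP (P-selectin, of platelets and venules) rose from 1.88 ± 0.542 to 17.0 ± 5.01 FPKM (limma adjusted p = 2.04e-07), and EMCN, a sialomucin of venous and capillary endothelium, from 0.396 ± 0.154 to 3.84 ± 0.615 FPKM (adjusted p = 4.48e-08, limma). NRP2, a co-receptor of venous and lymphatic cells, fell from 149 ± 28.2 to 18.3 ± 1.86 FPKM (limma adjusted p = 8.42e-09). At the step from H1 to APLNR+ cells 2 were raised, NRP2 and APLNR, and APLNR was the protein used for the sort. The lymphatic regulator PROX1 did not pass the filter, nor did LYVE1, STAB2, ACKR1 and TSHZ2.

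**Figure D4:**
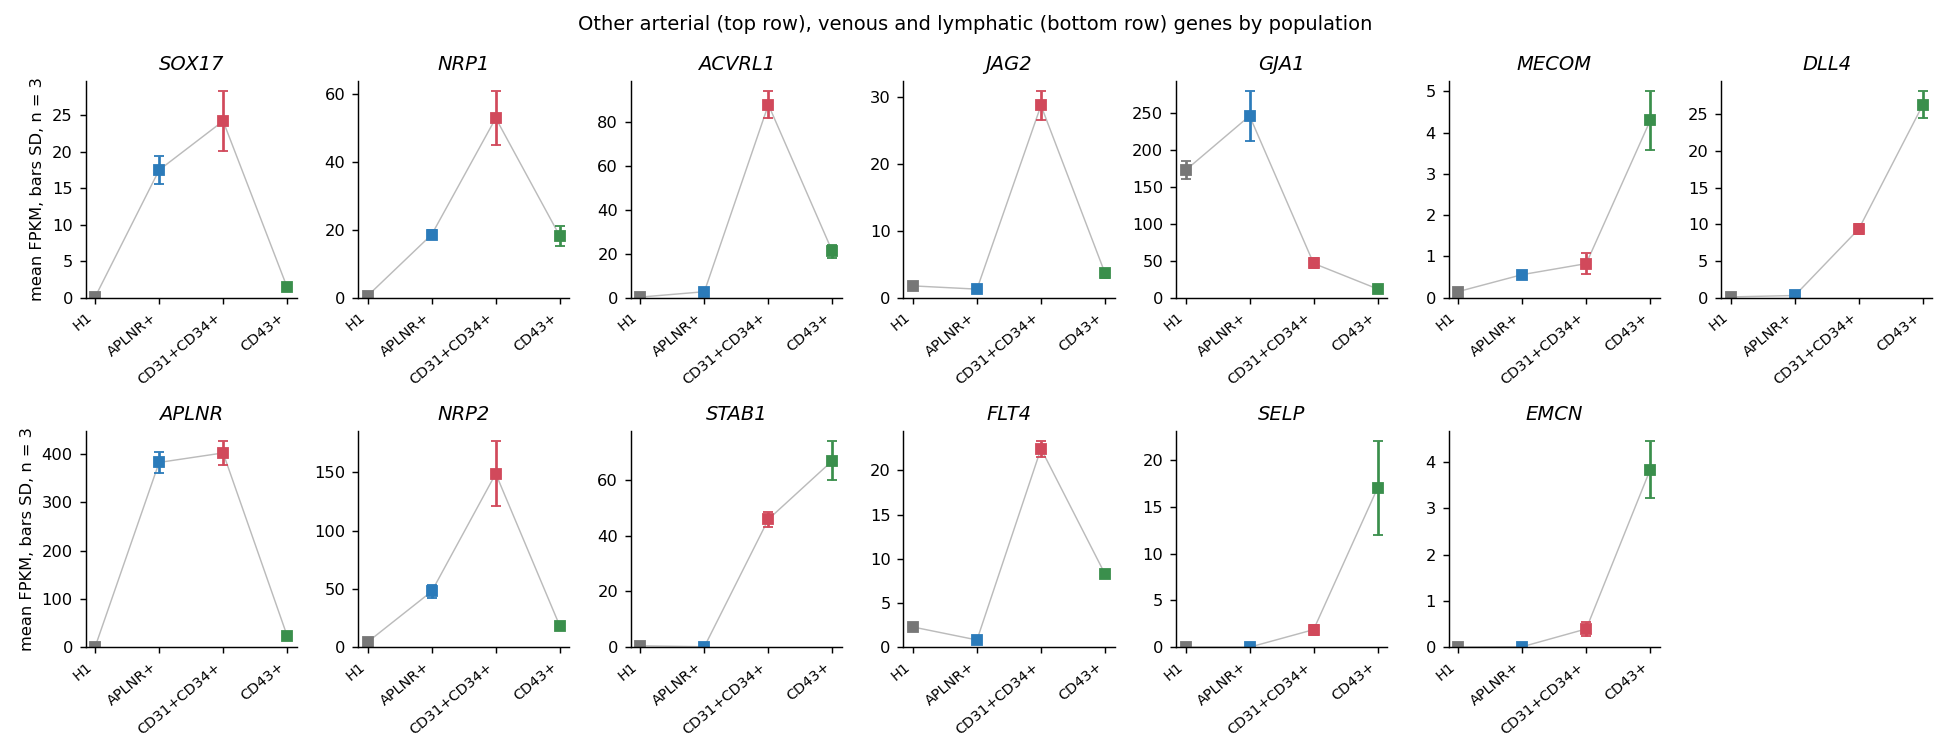
Mean FPKM (linear axes from 0) of 13 other arterial, venous and lymphatic genes in H1, APLNR+, CD31+CD34+ and CD43+ cells; squares are means of 3 libraries and bars are the SD. DLL4, MECOM, STAB1, SELP and EMCN are highest in CD43+ cells, as EFNB2 and GJA4 were, and ACVRL1, JAG2, SOX17, NRP1, NRP2 and FLT4 are highest in CD31+CD34+ cells.

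Of 20 other ephrins and Eph receptors 16 were tested. At the step to CD31+CD34+ cells, where EPHB4 rose, 2 were raised and 4 lowered, with a median of 0.05, counts near the shares of all genes at that step (12.5% raised and 17.1% lowered). The raised genes were the ligands EFNB1, from 5.18 ± 0.671 to 15.5 ± 1.76 FPKM (limma adjusted p = 6.34e-07), and EFNA1, from 5.42 ± 0.437 to 14.2 ± 2.72 FPKM (adjusted p = 2.71e-06, limma). The ligand EFNA5 fell from 6.71 ± 1.10 to 0.992 ± 0.236 FPKM (adjusted p = 3.09e-05, limma), and EPHB2, a receptor of B-class ephrins, fell from 15.2 ± 1.26 to 4.80 ± 0.497 FPKM (limma adjusted p = 1.52e-07).

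From H1 to APLNR+ cells 7 of the 16 were raised and 2 lowered, with a median of 0.43. EPHA4, a receptor of both ephrin classes, rose from 4.13 ± 0.222 to 47.6 ± 3.34 FPKM (adjusted p = 7.73e-10, limma), and EPHA1 fell from 49.6 ± 1.84 to 12.3 ± 0.637 FPKM (limma adjusted p = 5.09e-09). After the HEP stage none was raised and 6 were lowered, with a median of -0.83, and this was the step at which EFNB2 rose. EPHA2, the receptor of EFNA1, fell from 55.4 ± 5.33 to 12 ± 1.52 FPKM (limma adjusted p = 2.37e-08).

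Partners of the remaining genes were fewer. ACKR3, the scavenging receptor of CXCL12, rose from 0.281 ± 0.102 to 14.4 ± 2.50 FPKM between H1 and APLNR+ cells (limma adjusted p = 1.14e-09) and fell to 1.21 ± 0.0618 in CD31+CD34+ cells (adjusted p = 8.8e-09, limma), where CXCR4 was highest. It was the sole called gene at these steps among the 3 tested of 4 partners of CXCL12, and no partner was called at the step to CD43+ cells.

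Among netrin ligands and receptors, 6 of 9 were tested, with 3 raised and 1 lowered at the first step, 1 raised and 2 lowered at the HEP step and 2 lowered at the HPC step. UNC5C, a relative of UNC5B, rose from 3.93 ± 0.338 to 10.8 ± 1.11 FPKM at the step to CD31+CD34+ cells (limma adjusted p = 2.95e-07) and fell to 3.06 ± 0.151 in CD43+ cells (adjusted p = 9.75e-08, limma). The ligand NTN4 fell from 7.95 ± 0.931 to 0.975 ± 0.174 FPKM where UNC5B and UNC5C rose (limma adjusted p = 4.05e-09), and NTN1 from 3.18 ± 0.314 to 0.506 ± 0.0248 FPKM (adjusted p = 1.25e-08, limma).

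Among relatives and partners of the NR2F and HEY factors, 11 of 17 were tested, and 3 were raised and 1 lowered at the first step, 4 raised and 3 lowered at the step to CD31+CD34+ cells, and 1 raised and 1 lowered at the HPC step. ZFPM2, a cofactor that binds GATA factors and NR2F2, rose from 1.66 ± 0.290 to 14.3 ± 2.79 FPKM at the step to CD31+CD34+ cells (limma adjusted p = 2.28e-08). The repressor HES4 rose from 1.22 ± 0.150 to 10.8 ± 2.85 FPKM there (adjusted p = 2.18e-07, limma) and to 29.5 ± 6.61 in CD43+ cells (limma adjusted p = 5.04e-05), unlike HEY2, which fell at that step. RBPJ fell from 36.9 ± 11.0 to 4.10 ± 0.778 FPKM at the step to CD31+CD34+ cells (adjusted p = 6.2e-07, limma). RBPJ has near-identical pseudogene copies, so its values may be uncertain, and the part of these copies was not tested. HES4 and HEY1 also stand on the arterial list and GJA1 on the connexin list, where 3 of 18 genes were tested and GJA1 was lowered at both steps after APLNR+.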

How the data were processed

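RNA-seq was made from 12 libraries of H1 and derived cells. The authors deposited 1 table of FPKM values per gene and library; the submitters' processing notes name BWA, Bowtie, RSEM and hg19, with no role or version. Annotation and scaling are not given in the sources used here. Of 58365 gene lines, 345 symbols stood on more than 1, and their most abundant line was used.

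Genes at 1 FPKM or more in at least 3 libraries were tested on log2(FPKM + 1) with limma 3.58.1 (R 4.3.3, lmFit and eBayes with trend), all 12 libraries in 1 model, with Benjamini-Hochberg adjustment over all genes tested. NR2F1 and NR2F2 were tested by exact permutation (scipy 1.17.1). The scripts were tested on simulated data. Of each related list, counts are given, with examples from the 2 raised and 2 lowered genes of largest change at each step whose libraries did not overlap. Genes and lists were chosen with earlier results of these data known. Alternatives changed the pseudocount, filter, scaling, libraries, model and minimum change. Same-numbered libraries' deviations correlated at -0.0214 to 0.429 over 18 pairs, and every pair exceeded 0.1 for CD43+ against CD31+CD34+ and against H1. Promoter coordinates are GRCh38.p14, not the build of the table. Of the genes most similar to the 10, 1 is not reported here.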

Additional observations from a re-analysis of the deposited data

How the results depend on the processing

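Of 996 recomputed values, 988 kept their direction and their call, which needs both the p threshold and 2-fold. Many of the 996 could not change direction or size, so this count is no measure of stability. Leaving out a library of a population not compared left the log2 change as it was. So did changing only the filter, the replicate block or the variance model. Changes under 2-fold could cross the p threshold alone. From H1 to APLNR+ cells the limma adjusted p of UNC5B was 0.0751, and 0.0112 after upper-quartile scaling. That of CXCL12 was 0.00473, and 0.122 with a pseudocount of 0.1. With a pseudocount of 0.1, 2 of the 8 genes rather than 1 were raised from H1 to APLNR+ cells, GJA5 being added with a log2 change of 1.04. EFNB2 passed 2-fold between APLNR+ and CD43+ cells with that pseudocount (1.05) and after quantile normalization (1.10), where its main value was 0.94. With no minimum change, 4 genes were raised and 1 lowered from H1 to APLNR+ cells, 2 were lowered at the step to CD31+CD34+ cells, 2 were raised at the step to CD43+ cells, and 2 were lowered between H1 and CD43+ cells. With a filter at a mean of 5 FPKM, CXCL12 and HEY2 were no longer tested, so 0 were lowered at the step to CD31+CD34+ cells and between H1 and CD43+ cells. The sign of EPHB4 between H1 and APLNR+ cells turned in replicates 2 and 3 alone (-0.04) and ranged from -0.01 to 0.13 when 1 library was left out. That of CXCL12 from CD31+CD34+ to CD43+ cells ranged from -0.08 to 0.26, and was -0.01 without replicate 2 of CD31+CD34+ or replicate 3 of CD43+. The cause was not tested. With the replicate number as a block, 1, 6, 1 and 4 genes were raised and 0, 1, 5 and 1 lowered at the 3 steps and between H1 and CD43+ cells, as without it; in 23 of 36 cases a library correlated best with its own number. Upper-quartile scaling moved the median of all genes from H1 to APLNR+ cells from -0.12 to -0.04. The number of reads behind low values, such as those of NR2F1 and NR2F2, is unknown.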

Other observations

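For each of the 10 genes, the genes with the most similar FPKM over the 12 libraries were found by Pearson's r among 10423 or 10424 symbols. The libraries fall into 4 populations, so any gene with the same order of population means scores high, and no test is given.

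The highest r for GJA4 was 0.997, with LMO2, a blood and endothelial transcription cofactor, STAB1, and PECAM1, the CD31 used in the sort of the HEPs. GJA5 was nearest to ADGRA2 (r = 0.999), VASH1 (0.998) and PITPNM2 (0.997), of which VASH1 is a vasohibin of endothelial cells. EPHB4 was nearest to CCNF and PROCR, the endothelial protein C receptor, both at 0.993, and ABCB8 at 0.991. EFNB2 was nearest to SLC40A1, the iron exporter ferroportin (0.989), to GYPB, a red cell glycophorin (0.978), and to MGST2 (0.974).

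HEY2 was nearest to PRR9 (0.988), PCSK2 (0.984) and ISM1 (0.982). Among the genes nearest to UNC5B were PLEKHG5 (0.993) and BOK (0.985), and CXCR4 was nearest to PACS1 (0.993), EFEMP2 (0.990) and CLCN6 (0.989). CXCL12 was nearest to ZNF195 and TBC1D15, both at 0.994, and to ZNF484 at 0.992. NR2F2 was nearest to C2orf42 (0.968), BISPR (0.964) and the Notch ligand DLL4 (0.963), and NR2F1 to METRN (0.962), ZBTB16 (0.956) and GNRH2 (0.955), at levels under 1 FPKM for the nuclear receptors.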
